A study of Mus musculus with 13 samples.

Results

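The imprinted Dlk1-Dio3 cluster of mouse chromosome 12 encodes 96 of the 1907 mature miRNAs of the deposited plasma count table. They were chosen by name, as every arm of 48 hairpins known from this locus, and that rule uses no measured value. A count was seen for 79 of the 96 in at least 1 mouse and for 41 in all 13 mice. The other 17 were at 0 throughout, and 34 members, from 27 hairpins, were abundant enough to be tested.

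Small RNA was sequenced from the EDTA plasma of 13 mice, with 1 library per mouse. Naive wt mice (n = 3) were C57BL/10J animals that were not treated. Naive mdx mice (n = 3) carried the dystrophin mutation Dmdmdx on the C57BL10ScSn background and were also not treated. Per the paper, both naive groups still went through the functional tests of grip strength and running to exhaustion, as did gavaged mice. Vehicle mice (n = 4) were mdx mice gavaged with 0.5% methylcellulose on 5 days per week for 15 weeks, and Givinostat mice (n = 3) were mdx mice gavaged on the same schedule with 37.5 mg/kg of this histone deacetylase inhibitor. All mice were male, young adult at the start, and plasma was taken at the end of treatment, at the time point the labels call T16. The strain field of the labels names C57BL/10J for all samples, while the treatment text gives the mdx strain above, so genotype was taken from the sample titles. The mutation is present in the whole body, and the mdx line has a milder disease than the human dystrophy that it models. The series was designed to compare circulating miRNAs of mdx and wt mice, and of treated and control mdx mice.

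Dlk1-Dio3 is an imprinted domain. The protein-coding genes Dlk1, Rtl1 and Dio3 are expressed from the paternal chromosome, whereas the long non-coding RNAs Meg3, Rian and Mirg, and the miRNAs processed from the same strand, are expressed from the maternal one. The miRNAs are abundant in the embryo, in stem and progenitor cells and in adult brain, where those of the miR-379 to miR-410 group respond to neuronal activity through Mef2 factors. miR-134 is known for its control of dendritic spine size, and the miRNAs opposite Rtl1, miR-127 and miR-434 among them, are fully complementary to the Rtl1 transcript. In muscle, miRNAs of this domain are known from satellite cells and regenerating fibres.

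All 48 hairpins lay on the plus strand, within 180.1 kb of GRCm38 (chr12:109563692-109743795). From the centromeric side, 6 hairpins (miR-770, miR-673, miR-493, miR-337, miR-540 and miR-665) stood between Meg3 and Rtl1, with miR-770 in a Meg3 exon. The 5 hairpins miR-431, miR-433, miR-127, miR-434 and miR-136 lay opposite the exon of Rtl1 (chr12:109589193-109600330, minus strand). The pair miR-341 and miR-370 lay in introns of Rian (chr12:109603940-109661716). The other 35 hairpins, miR-379 to miR-410, ended in Mirg (chr12:109729764-109749460), where miR-382, miR-134, miR-485 and miR-410 overlapped exons and miR-541 and miR-409 introns.

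A miRNA finds its targets mainly through its seed, bases 2 to 8 from the 5′ end. The mature sequences of the members on which the results turn are given here 5′ to 3′ from the RefSeq table of GRCm38.p6, in which 92 of the 96 members were found, with the seed in capitals. The members lower in mdx plasma come first, then both arms of miR-434, which moved apart, then the 2 members that were higher in mdx plasma, and last the 2 from Rian.
miR-409-3p: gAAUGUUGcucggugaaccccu
miR-485-3p: aGUCAUACacggcucuccucuc
miR-382-5p: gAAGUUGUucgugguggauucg
miR-541-5p: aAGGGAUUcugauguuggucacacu
miR-127-3p: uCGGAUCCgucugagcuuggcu
miR-411-3p: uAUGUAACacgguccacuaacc
miR-434-5p: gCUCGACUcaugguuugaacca
miR-434-3p: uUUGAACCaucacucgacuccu
miR-381-3p: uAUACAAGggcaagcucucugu
miR-493-5p: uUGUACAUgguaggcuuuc
miR-341-3p: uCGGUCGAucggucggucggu
miR-370-3p: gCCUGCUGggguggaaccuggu
Their positions are chr12:109743204-109743225 for miR-409-3p, chr12:109734946-109734967 for miR-485-3p, chr12:109594528-109594549 for miR-434-5p, chr12:109726870-109726891 for miR-381-3p and chr12:109580243-109580261 for miR-493-5p. None of these 12 seeds is shared by another of the 12, so the members that moved together were not one seed family. Across the 92 sequences 6 seeds were shared by 2 members each, and AUGUAAC of miR-411-3p recurred in miR-379-3p:
miR-379-3p: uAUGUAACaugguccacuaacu
That sequence is 2 single-base edits away from miR-411-3p. A close relative of miR-381-3p is encoded nearby:
miR-300-3p: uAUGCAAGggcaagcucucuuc
It is 3 single-base edits away from miR-381-3p. Reads of up to 25 bases were mapped by the authors without mismatches, and the 2 were counted as separate miRNAs.

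Libraries held 1167161 to 2899315 miRNA counts. A total of 1598 to 4303 of these came from the members, of which 54 to 64 had a count in any one library. A count of 3, taken as the floor, was worth 1.03 to 2.57 CPM (a miRNA's counts per 1000000 counts of the library). Levels below are CPM after TMM scaling, which makes the libraries comparable by assuming that most miRNAs do not change. The composition of the plasma differed strongly between genotypes. miR-122-5p, the main miRNA of liver cells, took 37.6% to 64.6% of each naive wt library and 1.37% to 16.1% of each mdx library. The 5 skeletal muscle markers (miR-1a, miR-133 and miR-206) held 0.703% to 2.08% in naive wt and 28.3% to 46.7% in mdx mice. In mdx against wt plasma all 5 muscle markers were higher, all 4 liver markers lower, all 3 red blood cell markers (miR-451a and miR-144) lower, and 2 of 4 tested neuron markers lower, and no marker was at 0 in the series. Summed neuron markers (miR-124, miR-9, miR-129, miR-138 and miR-218) stood at 239 to 377 CPM in naive wt, 53.2 to 104 CPM in naive mdx, 59.6 to 238 CPM in vehicle and 135.8 to 193 CPM in Givinostat plasma. Summed red blood cell markers stood at 5080 to 6327, 2266 to 2974, 2395 to 3413 and 3448 to 5662 CPM. The part of these markers in the members' levels was not tested. In plasma, fewer releasing cells and less RNA released per cell cannot be told apart.

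The members were minor components of plasma. Together they made up 0.148% to 0.255% of the counts of naive wt mice, 0.169% to 0.219% in naive mdx, 0.105% to 0.196% in vehicle and 0.122% to 0.182% in Givinostat mice. The ranges of naive wt and of each mdx group overlapped on this scale. Without miR-122-5p in the denominator, the members held 0.409% to 0.508% in naive wt and 0.125% to 0.245% in the 10 mdx mice, with no overlap. Leaving out the liver and the muscle lists together gave 0.432% to 0.541% in naive wt and 0.225% to 0.374% in mdx mice, again with no overlap. Leaving out the muscle markers alone gave 0.149% to 0.261% in naive wt, 0.256% to 0.313% in naive mdx, 0.176% to 0.319% in vehicle and 0.229% to 0.293% in Givinostat mice, so each mdx group overlapped naive wt, with a higher mean. Whether the cluster as a whole was lower in mdx plasma thus depended on what it was measured against. On the TMM scale used below, the sums were 2024, 2082 and 2708 CPM in naive wt and 1230 to 1852 CPM in the 10 mdx mice.

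**Figure D1:**
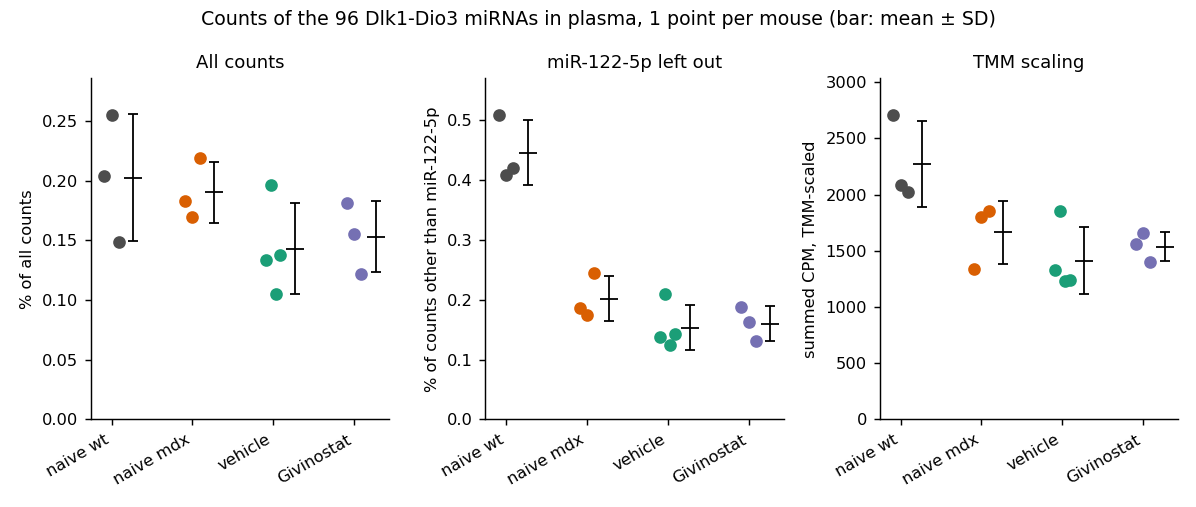
Summed counts of the 96 cluster miRNAs as a share of all counts, as a share of counts other than miR-122-5p and as TMM-scaled CPM, with 1 point per mouse and the mean ± SD of each group as a bar; the vertical axes start at 0 and give percent or CPM. On the share of all counts the groups overlap, while the 3 naive wt mice stand above all 10 mdx mice when miR-122-5p is left out (0.409% or more against 0.245% or less) and on the TMM scale (2024 CPM or more against 1852 CPM or less).

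Most of the signal came from few members. miR-434-5p was the most abundant with a mean of 187 CPM over the 13 mice, followed by miR-127-3p (149), miR-434-3p (138), miR-382-5p (137), miR-381-3p (136.2), miR-541-5p (133), miR-379-5p (92.8) and miR-409-3p (84.4 CPM), and these 8 held 62.3% of all member counts. These are counts in libraries, and ligation favours some miRNA ends over others, so the order of levels between miRNAs may not be that in plasma. The 2 large segments of the cluster held nearly the same shares of the member counts in each group. The hairpins opposite Rtl1 held means of 34.7% in naive wt, 34.8% in naive mdx, 34.2% in vehicle and 33.7% in Givinostat plasma, and miR-379 to miR-410 held 59.9%, 59.4%, 59.8% and 61.6%. The Rian pair held 1.24% to 1.76% in naive wt, 1.77% to 1.87% in naive mdx, 1.09% to 2.00% in vehicle and 0.755% to 0.997% in Givinostat mice, with the Givinostat mice below all others.

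Set against naive wt, the tested members were mostly lower in mdx plasma. The mean of the 3 mdx groups, a contrast added after the values were seen, was below naive wt for 32 of 34 members (94.1%), against 51.4% of all 368 tested miRNAs, with a median log2 fold change of −0.65 for the members and −0.07 for all. Called lower by edgeR at an adjusted p under 0.05 were 12 members and called higher 2. The 12 are 35.3% of the tested members, beside 25.3% of all tested miRNAs called lower and 28.8% called higher. The 12 members were miR-409-3p, miR-485-3p, miR-411-3p, miR-431-3p, miR-434-5p, miR-370-3p, miR-337-5p, miR-382-5p, miR-485-5p, miR-134-5p, miR-541-5p and miR-127-3p. In 7 members all 10 mdx mice were below all 3 naive wt mice, which is 20.6% of the tested members beside 15.2% of all tested miRNAs. Above the wt range in all 10 were 0 members, beside 21.2% of all. Both shares of lower members count miR-411-3p, and the 35.3% also counts miR-431-3p. These 2 passed the filter on low counts mainly through wt mice, so their decrease was partly set by it. Without wt mouse 86 the count of members called lower was 7. The share of all miRNAs called lower in that fit is not given here, so the 7 cannot be set against it. Scaling by library totals moved the median of all miRNAs by 0.24 and left 2 members called lower (5.88%, beside 11.7% of all miRNAs lower and 30.4% higher), although 30 of 34 stayed below 0. Upper-quartile scaling moved it by −0.17 and called 19 members lower (55.9%, beside 34.5% of all miRNAs lower and 23.9% higher). Whether the members were called lower more or less often than all miRNAs thus turned with the scaling.

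The 3 single comparisons share the naive wt mice and so are not independent. Naive mdx plasma had 3 members lower (8.82% of those tested, beside 16.6% of all miRNAs) and 1 higher (beside 26.9%), with 28 of 34 below 0 and a median log2 fold change of −0.59, beside 0.04 for all. Vehicle plasma had 12 lower (35.3%, beside 23.1%) and 1 higher (beside 24.2%), with 32 below 0 and a median of −0.72, beside −0.11. Givinostat plasma had 6 lower (17.6%, beside 11.7%) and 1 higher (beside 22.6%), with 32 below 0 and a median of −0.56, beside −0.10. Of all tested miRNAs, 48.4% were below 0 in naive mdx, 51.9% in vehicle and 52.4% in Givinostat plasma. In naive mdx plasma the members called lower were thus a smaller share than among all miRNAs, although the median of the members lay further below 0. The count for vehicle was 4 without vehicle mouse 40 or 43, 5 without vehicle mouse 42 and 7 without wt mouse 86 or 95. The count for Givinostat was 3 without Givinostat mouse 34 or 35. The shares of all miRNAs called in these fits are not given here, so the counts cannot be set against them. The vehicle count includes miR-411-3p and miR-431-5p, and the Givinostat count miR-341-3p, for which the filter on low counts partly set the decrease. Only miR-409-3p, miR-485-3p and miR-493-5p were called in all 3 comparisons, the last of which passed the filter on low counts through mdx mice alone.

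**Figure D2:**
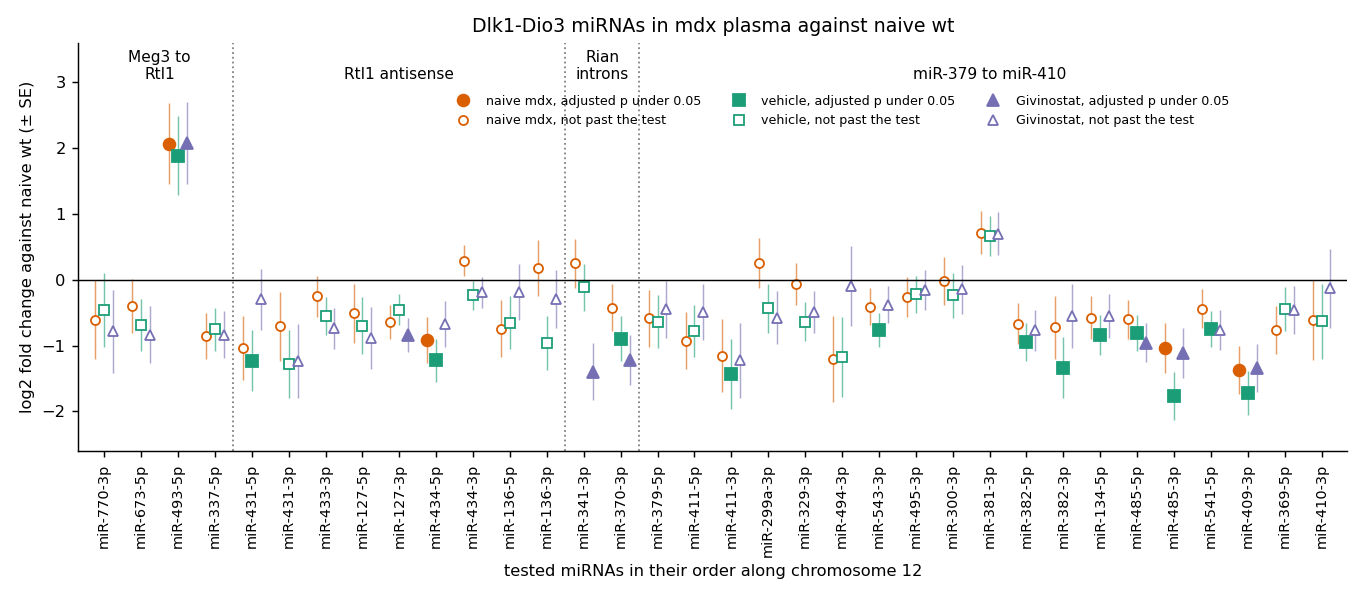
Log2 fold change against naive wt (± SE, edgeR) of the 34 tested cluster miRNAs in their order along chromosome 12, for naive mdx (circles, n = 3), vehicle (squares, n = 4) and Givinostat (triangles, n = 3) plasma; filled symbols passed an adjusted p under 0.05 and dotted lines divide the segments of the cluster. Most symbols lie below 0 in every segment, and only miR-381-3p and miR-493-5p lie above 0 in all 3 comparisons.

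By segment, the 9 tested members opposite Rtl1 had a median log2 fold change of −0.65 in the mean of the mdx groups, with 3 called lower. The 19 tested members of miR-379 to miR-410 also had −0.65, with 7 called lower and 1 higher. Of the 4 tested members between Meg3 and Rtl1, miR-337-5p was lower and miR-493-5p higher, and of the Rian pair miR-370-3p was lower. Beside these counts, all 368 tested miRNAs had a median of −0.07, with 25.3% called lower and 28.8% higher. The segments hold few tested members, and no difference between segments was tested.

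miR-409-3p, from an intron of Mirg near the telomeric end of the cluster, showed the largest decrease in naive mdx plasma and in the mean of the mdx groups; in vehicle plasma miR-485-3p and in Givinostat plasma miR-341-3p fell slightly further. It stood at 279.9, 109 and 114 CPM in the 3 naive wt mice, at 50.7, 49.5 and 93.4 CPM in naive mdx, at 48.2, 49.3, 45.4 and 60.2 CPM in vehicle and at 69.2, 55.6 and 72.8 CPM in Givinostat mice. All 10 mdx mice were below the lowest wt mouse, and wt mouse 86 was far above the other wt mice. The log2 fold change was −1.48 ± 0.27 (SE) in the mean of the mdx groups (adjusted p = 0.00028, edgeR), a 2.78-fold lower level. The single comparisons gave −1.37 ± 0.36 for naive mdx (adjusted p = 0.0065), −1.72 ± 0.34 for vehicle (0.00060) and −1.34 ± 0.36 for Givinostat (0.0093). Without wt mouse 86 the naive mdx and Givinostat values missed the threshold, at 0.0516 and 0.0755, while the mean of the mdx groups was −0.91 or lower and past the threshold whichever mouse was left out.

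Both arms of miR-485, whose hairpin overlaps a Mirg exon and which is known to act at synapses, were lower. miR-485-3p stood at 47.5, 52.5 and 40.9 CPM in naive wt mice. The values were 23.8, 12.02 and 32.05 CPM in naive mdx, 16.8, 6.62, 15.4 and 16.01 CPM in vehicle and 16.1, 21.1 and 28.1 CPM in Givinostat mice. All 10 mdx mice were below the 3 naive wt mice, while the 3 mdx groups overlapped each other. The log2 fold change was −1.31 ± 0.29 in the mean of the mdx groups (adjusted p = 0.0012, edgeR) and −1.77 ± 0.36 in vehicle plasma (0.00086), and both held whichever mouse was left out. In naive mdx plasma (−1.04 ± 0.38, 0.034) and Givinostat plasma (−1.11 ± 0.38, 0.033) the call was lost without 5 of the 6 mice in turn, at adjusted p up to 0.151 and 0.139; the exceptions were naive mdx mouse 39 and Givinostat mouse 35. miR-485-5p, which had no entry in the sequence table, stood at 66.6 to 119 CPM in naive wt, 56.5 to 65.8 CPM in naive mdx, 45.4 to 74.3 CPM in vehicle and 40.6 to 58.8 CPM in Givinostat mice. Only vehicle mouse 43, at 74.3 CPM, reached into the wt range, and the log2 fold change was −0.79 ± 0.23 in the mean of the mdx groups (adjusted p = 0.0092, edgeR; 0.0699 without wt mouse 86).

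miR-382-5p and miR-541-5p, both abundant and both from Mirg, were lower in all 10 mdx mice, but by less. miR-382-5p stood at 303, 159 and 151 CPM in naive wt mice and at 70.8 to 149 CPM in mdx mice. The highest mdx mouse was thus just below the lowest wt mouse, and wt mouse 86 was again far above the others. Its log2 fold change was −0.79 ± 0.24 (adjusted p = 0.012, edgeR), and −0.42 without wt mouse 86 (0.147). miR-541-5p stood at 199, 188 and 168 CPM in naive wt mice and at 78.2 to 163 CPM in mdx mice, with a log2 fold change of −0.65 ± 0.23 (adjusted p = 0.026). The miR-541-5p call was lost without wt mouse 86, 89 or 95, or vehicle mouse 40 or 43, at adjusted p of 0.0563 to 0.0831.

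**Figure D3:**
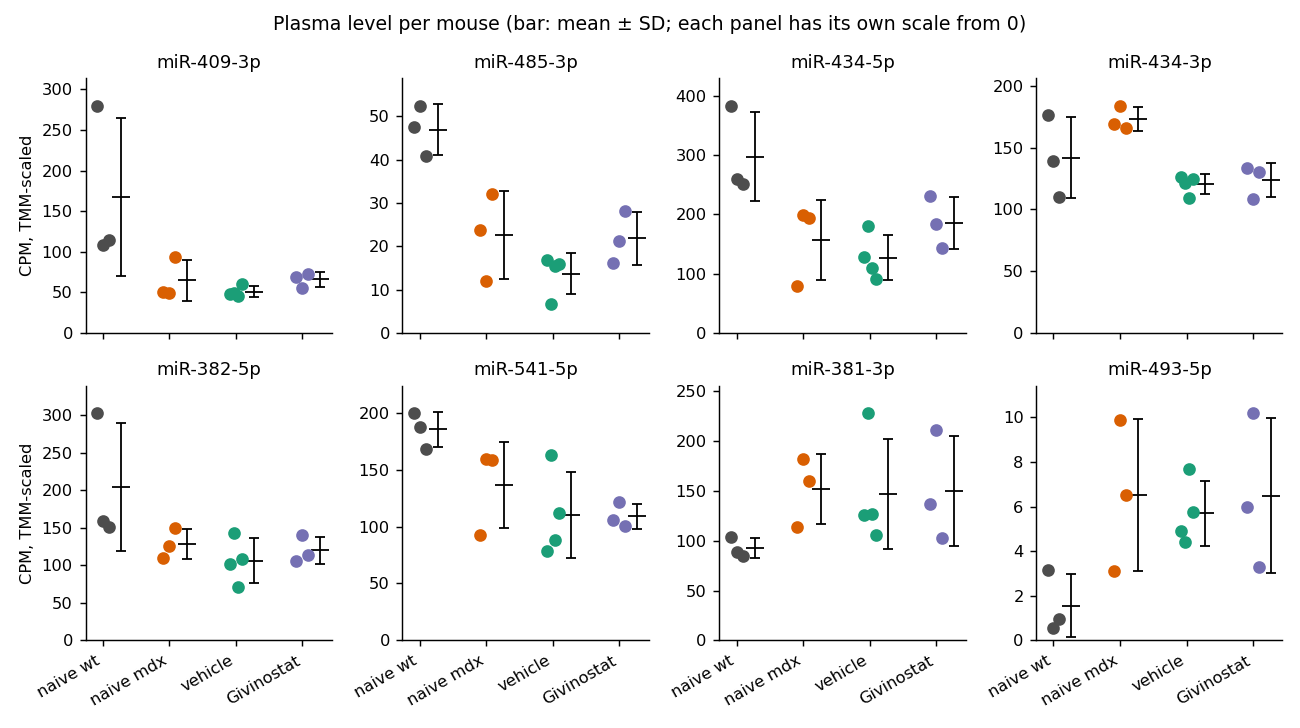
TMM-scaled CPM of 8 cluster miRNAs in each mouse, with the mean ± SD of each group as a bar; each panel has its own vertical axis from 0. miR-409-3p, miR-485-3p, miR-434-5p, miR-382-5p and miR-541-5p are lower in all 10 mdx mice than in the 3 naive wt mice, miR-434-3p overlaps between groups, and miR-381-3p and miR-493-5p are higher in 9 of the 10 mdx mice than in any wt mouse.

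miR-127-3p, the best-known miRNA opposite Rtl1, stood at 168, 199 and 245 CPM in naive wt mice. It was at 131, 140 and 120 CPM in naive mdx, 160, 193, 120 and 124 CPM in vehicle and 114, 132 and 95.2 CPM in Givinostat mice. Naive mdx and Givinostat mice were below the wt range, while vehicle mouse 41 reached into it. The log2 fold change was −0.65 ± 0.20 in the mean of the mdx groups (adjusted p = 0.014, edgeR; 0.0964 without wt mouse 95) and −0.84 ± 0.26 in Givinostat plasma (0.020). The Givinostat call was lost without wt mouse 95 (0.0756) or Givinostat mouse 35 (0.0660).

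Other members called lower were less abundant or less stable. miR-337-5p stood at 37.4, 36.1 and 72.0 CPM in naive wt and at 18.5 to 36.0 CPM in mdx mice, with a log2 fold change of −0.81 ± 0.27 (adjusted p = 0.019, edgeR). Its non-overlap was narrow, and without wt mouse 95 the value was −0.38 (0.281). miR-134-5p stood at 70.5 to 139 CPM in naive wt and 40.8 to 83.1 CPM in mdx mice, with −0.65 ± 0.25 (adjusted p = 0.040). That call was lost without 8 of the 13 mice in turn (wt 86 and 95, vehicle 40, 42 and 43, Givinostat 31, 34 and 35), and was furthest away without wt mouse 86 (0.285). miR-411-3p, at 7.60 to 11.3 CPM in naive wt and 0 to 7.35 CPM in mdx mice, had −1.27 ± 0.42 (adjusted p = 0.021), lost without wt mouse 89 (0.0699) or 95 (0.0736). miR-431-3p, from a hairpin known in satellite cell biology, stood at 5.65 to 9.50 CPM in naive wt and 0.770 to 6.62 CPM in mdx mice. Its log2 fold change of −1.08 ± 0.41 (adjusted p = 0.038) was lost without 8 of 12 mice in turn, at up to 0.135 (wt 86, 89 and 95, naive mdx 37, vehicle 40, 42 and 43, Givinostat 35). The last 2 passed the filter on low counts mainly through the wt mice, since they reached 6.96 CPM before TMM scaling in 2 wt mice and 1 mdx mouse, so their decrease was partly set by that filter.

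Members called in vehicle plasma alone of the 3 groups were miR-543-3p (−0.77 ± 0.26, adjusted p = 0.025, edgeR), miR-382-3p (−1.33 ± 0.47, 0.028) and miR-431-5p (−1.23 ± 0.46, 0.038), beside miR-134-5p, miR-411-3p, miR-382-5p and miR-541-5p. The calls of the first 3 were lost without vehicle mouse 40 or 43, among others (5 to 6 of 7 mice in turn), at adjusted p up to 0.117, 0.110 and 0.159. Since naive mdx and Givinostat plasma were also below naive wt for all 3, these calls do not separate vehicle from the other mdx groups, and no member was called between vehicle and naive mdx. The other 4 were lost without vehicle mouse 40 or 43 as well, and without 3 to 6 mice in turn, at adjusted p up to 0.209. The 5 further members called lower in vehicle plasma were miR-409-3p, miR-485-3p, miR-434-5p, miR-485-5p (0.024) and miR-370-3p (0.040), the last 2 lost without 5 and 6 of 7 mice in turn. Of the members called in vehicle plasma alone, miR-431-5p reached 6.96 CPM before TMM scaling in 2 wt mice and 2 mdx mice. The wt mice helped it to pass the filter on low counts, so its decrease was partly set by that filter.

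Only 2 members were called higher. miR-493-5p, from between Meg3 and Rtl1, had 5, 1 and 2 counts in naive wt, 5, 14 and 12 in naive mdx, 7, 6, 10 and 9 in vehicle and 10, 13 and 4 in Givinostat mice, although no other group had more counts in total than naive wt. These counts were worth 0.564 to 3.17 CPM in naive wt and 3.13 to 10.2 CPM in mdx mice, and 9 of the 10 mdx mice were above the highest wt mouse. The log2 fold change was 2.00 ± 0.53 in the mean of the mdx groups (adjusted p = 0.0053, edgeR). It was 2.06 ± 0.61 in naive mdx (0.012), 1.88 ± 0.60 in vehicle (0.018) and 2.07 ± 0.62 in Givinostat plasma (0.017). These 3 calls were lost without wt mouse 89 or 95, and those of naive mdx and Givinostat also without naive mdx mouse 37 or Givinostat mouse 34, at adjusted p of 0.0611 to 0.0980. The counts are few, and the member entered the test only through mdx mice, with 4 of them and 0 wt mice at 6.96 CPM before TMM scaling. It had to be higher in mdx plasma to be tested, so these values describe it and lend its direction no further support.

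miR-381-3p rested on far more counts. It stood at 104, 88.6 and 85.2 CPM in naive wt mice. It was at 113, 182 and 160 CPM in naive mdx, 126, 228, 126.96 and 106 CPM in vehicle and 137, 211 and 103 CPM in Givinostat mice. In 9 of 10 mdx mice it was above the highest wt mouse, the exception being Givinostat mouse 35. The log2 fold change was 0.69 ± 0.28 in the mean of the mdx groups (adjusted p = 0.043, edgeR). The call was lost without wt mouse 86, 89 or 95, vehicle mouse 42 or Givinostat mouse 34, at adjusted p of 0.0505 to 0.110, and in no single comparison did it pass. Its relative miR-300-3p, at 15.5 to 25.3 CPM in naive wt, had −0.13 ± 0.29 (adjusted p = 0.69).

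As a share of the member counts alone, a scale on which liver and muscle miRNAs do not enter, miR-381-3p held 3.84% to 4.25% in naive wt and 7.35% to 12.7% in mdx mice. miR-409-3p held 5.23% to 10.3% in naive wt and 2.66% to 5.21% in mdx mice. miR-493-5p held 0.0271% to 0.117% in naive wt and 0.234% to 0.626% in mdx mice. The margin was wide for miR-381-3p and almost nil for miR-409-3p, and these shares were not tested. These members are shown because their shares did not overlap between genotypes, whereas those of all other tested members did. The shares depend on one another. Since most members were lower in mdx plasma, a higher share can arise without a higher level.

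The ratio of the 2 arms of a hairpin is likewise free of the scaling between libraries. Both arms were tested for 95 hairpins of the table, 7 of them in the cluster. In the hairpin miR-434 the arms moved apart. miR-434-5p stood at 383, 259 and 250 CPM in naive wt mice. It was at 79.5, 198 and 193 CPM in naive mdx, 129, 179, 110 and 90.3 CPM in vehicle and 231, 184 and 143 CPM in Givinostat mice, all below the wt range. miR-434-3p was at 176, 139 and 110 CPM in naive wt, 169, 184 and 166 CPM in naive mdx, 126, 121, 109 and 125 CPM in vehicle and 134, 108 and 130 CPM in Givinostat mice, with overlap in each comparison. In the mean of the mdx groups the log2 fold change was −0.94 ± 0.27 for the 5p arm (adjusted p = 0.0077, edgeR; 0.0571 without wt mouse 86) and −0.05 ± 0.19 for the 3p arm (0.82; 95% interval −0.45 to 0.35). Vehicle plasma had −1.23 ± 0.32 for the 5p arm (0.0054), held for every mouse left out.

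The ratio of the 5p to the 3p count of miR-434 was 2.17, 1.86 and 2.27 in naive wt mice. It fell to 0.471, 1.08 and 1.17 in naive mdx mice. It was 1.02, 1.48, 1.01 and 0.724 in vehicle and 1.73, 1.70 and 1.10 in Givinostat mice. Every mdx mouse was below every wt mouse, and Givinostat mice 31 and 34 were closest to wt. The share of all 95 hairpins with such non-overlap is not given here, so it does not by itself set miR-434 apart. The log2 ratio differed from naive wt by −1.32 ± 0.38 in naive mdx plasma (adjusted p = 0.024 over the 95 hairpins, limma) and by −0.95 ± 0.30 in the mean of the mdx groups (0.042). Of the 95 hairpins, 11.6% were called lower in the first and 11.6% in the second of these comparisons, and 4.21% and 6.32% were called higher. Of the 7 cluster hairpins only miR-434 was called, which is too few to set the cluster apart from those shares. The differences of −1.03 ± 0.35 for vehicle (0.088) and −0.50 ± 0.38 for Givinostat plasma (0.44) did not pass, and Givinostat against vehicle gave 0.53 ± 0.35 (0.91; 95% interval −0.22 to 1.29). The naive mdx call was lost without naive mdx mouse 36 or any wt mouse (adjusted p of 0.0571 to 0.0890). The call for the mean of the mdx groups was lost without 9 of the 13 mice in turn, at 0.0519 to 0.196; it held without a naive mdx mouse or vehicle mouse 41. The test was added after the values of both arms were seen.

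**Figure D4:**
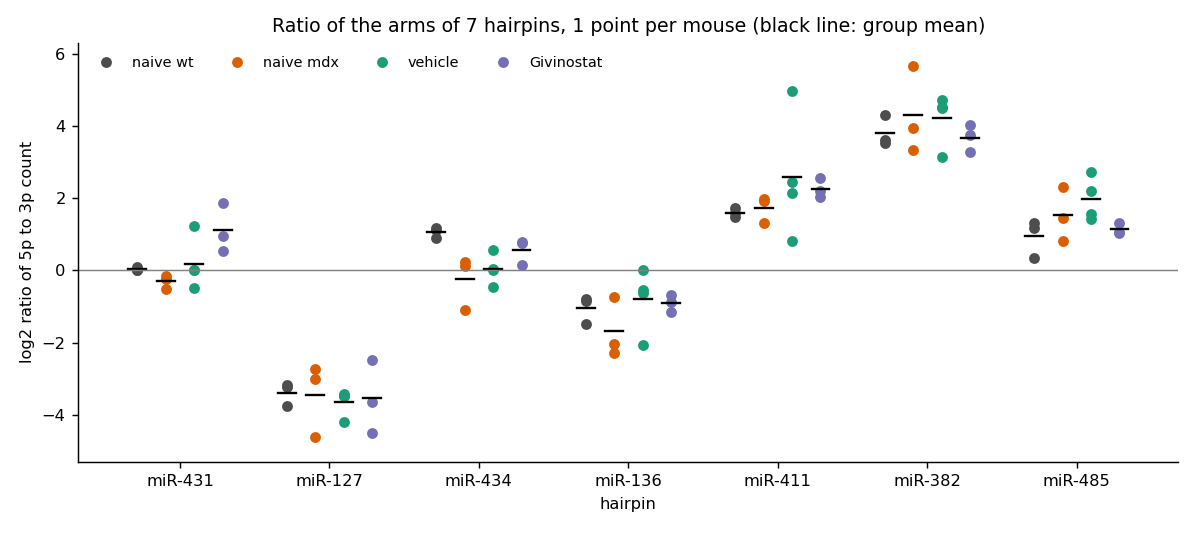
Log2 ratio of the 5p to the 3p count of the 7 cluster hairpins with both arms tested, with 1 point per mouse coloured by group and a black line at each group mean; 0 marks equal counts. For miR-434 the naive wt mice lie above all mdx mice, with group means of 1.07 in naive wt, −0.25 in naive mdx, 0.03 in vehicle and 0.56 in Givinostat plasma, while in the other 6 hairpins the naive wt mice overlap the pooled 10 mdx mice.

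In the other 6 hairpins the ratios of naive wt mice overlapped those of the pooled 10 mdx mice. Single groups lay apart in some of them, but no difference passed: miR-431 was higher in Givinostat than naive wt plasma by 1.09 ± 0.42 (adjusted p = 0.13, limma) and miR-485 higher in vehicle than naive wt plasma by 1.03 ± 0.40 (0.11). The difference was smallest for miR-136, at −0.08 ± 0.40 in the mean of the mdx groups (adjusted p = 0.86, limma; 95% interval −0.95 to 0.78). Both arms of miR-485 were called lower, and beside miR-411-3p, miR-411-5p had −0.73 ± 0.33 (adjusted p = 0.069, edgeR).

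Givinostat plasma was compared with vehicle plasma to see what the drug changed. No member was called, in either direction, by edgeR or by DESeq2. Of all 368 tested miRNAs 0.272% were called higher and 0% lower. With unadjusted p-values under 0.05 there were 0 higher members and 1 lower, beside 15 and 10 of all tested miRNAs. The median log2 fold change of the members was 0.12, beside −0.02 for all, and 22 of 34 were above 0. Below 0 were 35.3% of the members, beside 53.0% of all. The 1 member was miR-341-3p, from an intron of Rian. It stood at 13.9, 10.7 and 9.88 CPM in naive wt, 10.6, 15.6 and 14.7 CPM in naive mdx, 6.28, 14.0, 15.4 and 7.05 CPM in vehicle and 4.77, 3.92 and 4.14 CPM in Givinostat mice. The 3 Givinostat mice were below all 10 others, on 8, 5 and 5 counts each. The share of all tested miRNAs with that non-overlap is not given here. The Givinostat mice stood at 5.57, 3.66 and 3.62 CPM before TMM scaling, all under the 6.96 CPM of the filter on low counts. The member thus passed that filter through the other groups alone, so its low level in Givinostat plasma was partly set by the filter. Against vehicle alone, 1 member lay below without overlap (beside 3.26% of all tested miRNAs) and 1 above (beside 4.35%). The latter was miR-136-3p, chosen for this, at 21.5 to 28.0 CPM in Givinostat and 7.68 to 19.9 CPM in vehicle mice (0.67 ± 0.42, adjusted p = 0.71, edgeR). The log2 fold change of miR-341-3p was −1.28 ± 0.42 against vehicle (adjusted p = 0.28, edgeR) and −1.40 ± 0.43 against naive wt (0.019). The call against naive wt was lost without wt mouse 86 or Givinostat mouse 34 or 35 (adjusted p of 0.0545 to 0.0680).

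Its neighbour in Rian, miR-370-3p, stood at 16.9 to 24.3 CPM in naive wt, 11.9 to 18.5 CPM in naive mdx, 6.40 to 17.7 CPM in vehicle and 7.45 to 10.1 CPM in Givinostat mice. Against naive wt the log2 fold change was −0.85 ± 0.28 in the mean of the mdx groups (adjusted p = 0.020, edgeR) and −1.22 ± 0.38 in Givinostat plasma (0.021). The first call was lost without wt mouse 89 (0.116) or vehicle mouse 40 (0.0529), the second without wt mouse 89 or Givinostat mouse 34 or 35 (0.0660 to 0.0802). Against vehicle the difference was −0.32 ± 0.38 (0.86; 95% interval −1.12 to 0.48). The sum of the Rian miRNAs was 12.4 to 15.5 CPM in Givinostat and 13.5 to 32.4 CPM in vehicle mice, so those ranges overlapped.

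Vehicle plasma was compared with naive mdx plasma as the control of gavage and methylcellulose together, which it cannot separate. No member was called by edgeR or DESeq2, and neither was any of the 368 tested miRNAs (0% higher and 0% lower by edgeR). With unadjusted p-values under 0.05 there were 0 higher members and 2 lower, beside 10 and 7 of all tested miRNAs. The median log2 fold change was −0.27 for the members and −0.13 for all. Below 0 were 26 of 34 members (76.5%), beside 62.2% of all. With 3 or 4 mice a group, a missed threshold does not show that the groups were alike.

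The remaining 45 counted members were too rare to test, with at most 99 counts over the 13 libraries. miR-665-3p, from between Meg3 and Rtl1, is named because it had no count in naive wt plasma, where the libraries held 6438886 counts:
miR-665-3p: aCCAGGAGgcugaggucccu
It had 15 counts in naive mdx, 6 in vehicle and 4 in Givinostat plasma. The naive mdx level was 3.55 CPM of the group's summed counts (exact Poisson 95% interval 1.99 to 5.85, counting error only). That level is 7.62-fold the floor of 3 counts over the naive wt group (0.466 CPM), or 3.46-fold with miR-122-5p left out of the totals. Both folds use the measured level and not the low end of its interval, so neither is a lower bound. Vehicle and Givinostat plasma were 2.28-fold and 2.05-fold above that floor, but at 1.06 and 0.925 times it without miR-122-5p, which is no excess. miR-770-5p, from a Meg3 exon, had 49 counts in naive wt, 8 in naive mdx, 18 in vehicle and 13 in Givinostat plasma. These were worth 7.61, 1.89, 3.19 and 3.11 CPM of the summed counts of each group. A single naive wt mouse held 27 of the 49 counts. Both members were chosen after their values were seen.

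Another 20 miRNAs are placed in or beside the locus but were outside the chosen list. Of these 9 had a count, with at most 71 over the 13 libraries, and 0 could be tested.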

How the data were processed

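Per the labels and the study's methods, RNA was extracted from plasma with a serum/plasma kit, ligated to adapters, amplified, size-selected for mature miRNAs and sequenced. The authors trimmed adapters (the submitters' notes list cutadapt 1.4.2, bcl2fastq 1.37.0 and Bowtie 1.0.0, whereas the methods name Trimmomatic), mapped reads to GRCm38 (mm10) and deposited counts per mature miRNA of miRBase release 21, summed over isomiRs. The authors also deposited a log2 table of normalised counts, used here only for alternative tests. No molecular identifiers were stated, and the exact Poisson interval covers counting error only. Intervals of fold changes and of arm ratio differences come from the edgeR and limma fits and rest on the spread between mice.

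Counts were tested with edgeR 4.0.16 in R 4.3.3 (TMM scaling, filterByExpr by group with a minimum count of 10, quasi-likelihood test, 13 libraries, 1 mean per group) and adjusted by Benjamini-Hochberg over 368 miRNAs, with a threshold of 0.05; SE was the log2 fold change divided by the root of F. Arm ratios (pseudocount 0.5) were tested with limma 3.58.1 and DESeq2 1.42.0 was an alternative. The tests were tried on simulated counts. P-values measure the spread between mice of a group. All 15 within-group pairs of libraries differed beyond counting noise, so none was a duplicate.

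The cluster members, the marker lists and the neighbour list were chosen with earlier results of these data known. Named members were the 8 most abundant, those called (up to 10 per direction and comparison), the most abundant of each segment, and the arms that differed most and least; miR-300-3p, miR-379-3p, miR-411-5p, miR-665-3p and miR-770-5p were added after their values were seen. Positions were read from GENCODE M21 and RefSeq annotation of GRCm38. Alternatives were other scalings and filters, DESeq2, limma, fits of the compared groups alone and leaving out each mouse. The mean of the 3 mdx groups, the arm ratio test and the denominator without liver and muscle markers were added after the data were seen.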

Additional observations from a re-analysis of the deposited data

Results flagged for a closer look

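Among 44 sets of 4 vehicle values tested for a mouse apart from the other 3, 5 had one, where chance gives about 1 in 20. Vehicle mouse 43 stood at 74.3 CPM for miR-485-5p, with the others at 45.4 to 46.2 CPM. Vehicle mouse 41 stood at 6.62 CPM for miR-485-3p, with the others at 15.4 to 16.8 CPM. The same mouse had the highest summed member level, at 1852 CPM against 1230 to 1333 CPM. The log2 ratio of the 5p to the 3p count was 3.14 for miR-382 in vehicle mouse 42, against 4.48 to 4.71 in the others. For miR-127 it was −4.20 in vehicle mouse 40, against −3.48 to −3.43. The groups of 3 mice were too small for this check.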

How the results depend on the processing

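The counts of called members depended on scaling, test and single mice, while directions rarely did: of the named members' calls 234 alternatives kept and 83 lost the call in the mean of the mdx groups against naive wt, and none turned its direction. Kept and lost were 116 and 86 for vehicle, 59 and 44 for Givinostat and 38 and 27 for naive mdx, each against naive wt.
Members called higher in naive mdx than naive wt (1) became 2 with library totals, with no filter, with DESeq2 and with limma at either pseudocount, 0 with a mean of at least 10 CPM or the compared groups alone, and 0 to 3 with a mouse left out. Members called lower (3) became 5 with RLE scaling, with at least 10 CPM and with DESeq2, 0 with library totals and with limma, 10 with upper-quartile scaling, and 2 to 4 with a mouse left out. For vehicle, those higher (1) became 2 with no filter, 0 with at least 10 CPM or the 2 groups alone, and 0 to 2 with a mouse left out; those lower (12) became 3 with library totals and with limma, and 4 to 9. For Givinostat, those higher (1) became 2 with no filter, 0 with at least 10 CPM, and 0 to 1; those lower (6) became 1 with library totals or no filter, 0 with limma, and 3 to 4. For the mean of the mdx groups, those higher (2) became 1 with upper-quartile scaling or at least 10 CPM, 4 with DESeq2, and 1 to 3; those lower (12) became 2 with library totals and with limma, 19 with upper-quartile scaling, and 7 to 16. Vehicle against naive mdx and Givinostat against vehicle gave 0 members under each alternative run. The cause of these changes was not tested. Members lower in naive mdx plasma were 14.7% of those tested with RLE scaling, beside 19.8% of all miRNAs. With library totals they were 0% beside 6.25%, and with upper-quartile scaling 29.4% beside 26.1%. With library totals the lower members were 8.82% for vehicle (beside 12%) and 2.94% for Givinostat (beside 4.89%). DESeq2 gave an adjusted p to other sets of miRNAs, so its counts rest on another base. For naive mdx it called 5 of 57 members lower and 2 higher, beside 68 and 106 of 573 miRNAs. For the mean of the mdx groups it called 11 of 53 members lower and 4 higher, beside 88 and 114 of 550 miRNAs. The shares of all miRNAs called are not given here for limma, other filters, the compared groups alone or a mouse left out. The member counts of those alternatives thus cannot be set against them.
The log2 ratio of the summed member share was −0.09 for naive mdx against naive wt, −1.14 without miR-122-5p, −0.45 as TMM-scaled CPM and −0.59 without the liver and muscle lists, and −0.27 to 0.11 with a mouse left out. It was −0.50 for vehicle (−1.54 without miR-122-5p), −0.41 for Givinostat (−1.48) and −0.34 for the mean of the mdx groups (−1.39), each against naive wt. It was −0.41 for vehicle against naive mdx and 0.10 for Givinostat against vehicle, the latter from −0.04 to 0.29 with a mouse left out.
No paired analysis was possible because the mouse numbers of the labels are not shared between groups. Depth limits members under a few CPM, of which 45 could not be tested.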
